A study of Homo sapiens with 22 samples.

Results

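The genes described here encode 4 proteins of the nuclear lamina (LMNA, LMNB1, LMNB2 and LBR), 4 high-mobility-group (HMG) proteins (HMGB1, HMGB2, HMGA1 and HMGA2) and the lysosomal enzyme GLB1. They were chosen by gene symbol as genes whose levels are known to shift in senescence. All 9 symbols were found, each in 1 of the 35237 rows of the count table, and all 9 passed the filter on low counts in every comparison. RNA was sequenced in 22 libraries from SK-N-AS and GIMEN. Both are long-established lines derived from human neuroblastoma, a tumour of the sympathetic lineage, and both are labelled mesenchymal. Untreated SK-N-AS cells grew in DMEM with 10% fetal bovine serum (n = 4). The group S1D4 had received 5 µM PP121, an inhibitor of tyrosine kinases and phosphoinositide kinases, in 1% serum for 4 days (n = 4). The groups S2D4 and S2D30 came from S1D4 cells that then received 5 µM PP121 with 100 nM bufalin, a cardiac glycoside that inhibits the sodium pump, in Neurobasal medium with the B27 supplement, for 4 or 30 days (n = 4 each). Untreated GIMEN cells grew in RPMI with 10% serum (n = 3), and the group D30 had received 2.5 µM PP121 with 10 nM bufalin in RPMI with 1% serum for 30 days, with no stage 1 (n = 3). Serum and medium thus changed together with the drugs and cannot be told apart from them. The series presents the treated cells as differentiated, so the comparisons ask how these 9 genes stood in each treated state against untreated cells.

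Lamins are filaments that line the inner face of the nuclear envelope. The B-type lamins LMNB1 and LMNB2 are permanently farnesylated and membrane-bound, whereas LMNA encodes lamins A and C, whose abundance relative to B-type lamins is known to vary with tissue stiffness and differentiation. LBR is a receptor in the inner nuclear membrane that tethers heterochromatin through B-type lamins and HP1. HMGB1 and HMGB2 bend DNA through HMG boxes, and HMGB1 also acts as an alarm signal when released from cells. HMGA1 and HMGA2 bind AT-rich DNA through AT hooks; HMGA2 is high in embryonic tissue and mesenchymal tumours and its messenger RNA is a textbook target of the let-7 miRNAs. Loss of LMNB1 and of HMGB2 messenger RNA, and a rise of the β-galactosidase encoded by GLB1, are widely used marks of senescent cells.

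Libraries held between 16456484 and 37506800 counts in all. Every mesenchymal marker examined (7 of 7, among them PRRX1, VIM and FN1) was above the detection floor of 3 counts in each group. The floor counted as passed where any library of the group exceeded it. Their summed level was 922.8 to 1451 CPM (counts scaled to library size) in untreated SK-N-AS and 2969 to 3687 CPM in S2D30. It was far higher in GIMEN, at 37550 to 39130 CPM before and 20470 to 23530 CPM after treatment. The summed level of 9 adrenergic markers was 1670 to 1909 CPM (counts scaled to library size) in untreated SK-N-AS and 213.1 to 263.3 CPM in S2D30, and HAND1 was at 0 in both GIMEN groups. Leukocyte markers summed to 159.6 to 207.4 CPM in untreated SK-N-AS and 3.07 to 5.775 CPM in S2D30, with CD3E at 0 in every SK-N-AS library. Only 2 of these 6 markers were above the floor in untreated SK-N-AS, and 4 in S2D30. TYROBP was also at 0 in both groups. The part of the leukocyte markers in the results was not tested. Replicate 4 of S2D4 stood apart, with correlations of log2 CPM to the other 3 libraries of its group of 0.9631 to 0.9651, where those 3 correlated with each other at up to 0.9903. The labels number the replicates but do not say whether they were separate cultures, so p-values measure the spread between these libraries, which may be technical. In bulk RNA, fewer cells that express a gene and less of its RNA per cell cannot be told apart.

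Promoter sequence from RefSeq (GRCh38.p14, 250 bases before to 50 bases after an annotated start) was matched for 7 of the 9 genes, the exceptions being HMGB2 and HMGA2. The 3 stretches below are examples that hold matches to the words searched. Of their genes, LMNB2 and HMGB1 were lower in every comparison of treated with untreated cells, whereas LMNA was higher after stage 2 and lower in treated GIMEN. The stretches run 5′ to 3′ on the strand of the gene, and leave out bases that lie in annotated exons. Capitals mark exact matches, on either strand, to CCAAT (the NF-Y box), to TTTGAA (the cell cycle homology region bound by DREAM and MuvB complexes), to TTTNNCGC (an E2F-like word) or to CACGTG (an E-box). The LMNA stretch lies on the plus strand at chr1:156082323-156082572, that of LMNB2 on the minus strand at chr19:2456997-2457209, and that of HMGB1 on the minus strand at chr13:30465966-30466116.
LMNA: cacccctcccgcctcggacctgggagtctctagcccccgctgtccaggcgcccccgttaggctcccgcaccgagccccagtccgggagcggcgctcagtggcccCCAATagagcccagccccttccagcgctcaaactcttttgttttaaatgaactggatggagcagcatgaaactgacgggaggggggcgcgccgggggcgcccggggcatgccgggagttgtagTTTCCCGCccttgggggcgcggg
LMNB2: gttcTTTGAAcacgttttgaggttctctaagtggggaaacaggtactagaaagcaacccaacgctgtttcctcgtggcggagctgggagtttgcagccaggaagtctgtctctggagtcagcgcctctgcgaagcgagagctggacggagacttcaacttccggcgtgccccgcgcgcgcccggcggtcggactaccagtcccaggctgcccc
HMGB1: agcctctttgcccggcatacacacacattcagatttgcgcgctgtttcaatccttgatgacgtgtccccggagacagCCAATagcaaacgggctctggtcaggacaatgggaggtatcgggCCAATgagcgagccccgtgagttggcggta
Counting back from the start, with the base before it as -1, LMNA had CCAAT at -146 and the E2F-like letters TTTCCCGC at -23. LMNB2 had TTTGAA at -246, and the HMGB1 stretch had CCAAT at -103 and at -59. LMNB1, not printed because the window concerned lies within exons of another transcript, had CCAAT on the opposite strand at -138 and CACGTG at -122. LBR, lower in the same comparisons as LMNB2 and HMGB1, had no match in its window and is not printed. Other windows of LMNA and HMGB1, some without a match, are not printed either. Over the 13 windows of the 7 genes, CCAAT was found in 6 (46.2%), against 34.6% of 35116 RefSeq windows of the same length. TTTGAA was found in 2 (15.4%, against 15.2%), while TTTNNCGC was found in 1 (7.69%, against 6.89%) and CACGTG also in 1 (7.69%, against 7.26%). These matches describe letters in a window and say nothing about whether a factor binds there.

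**Figure D1:**
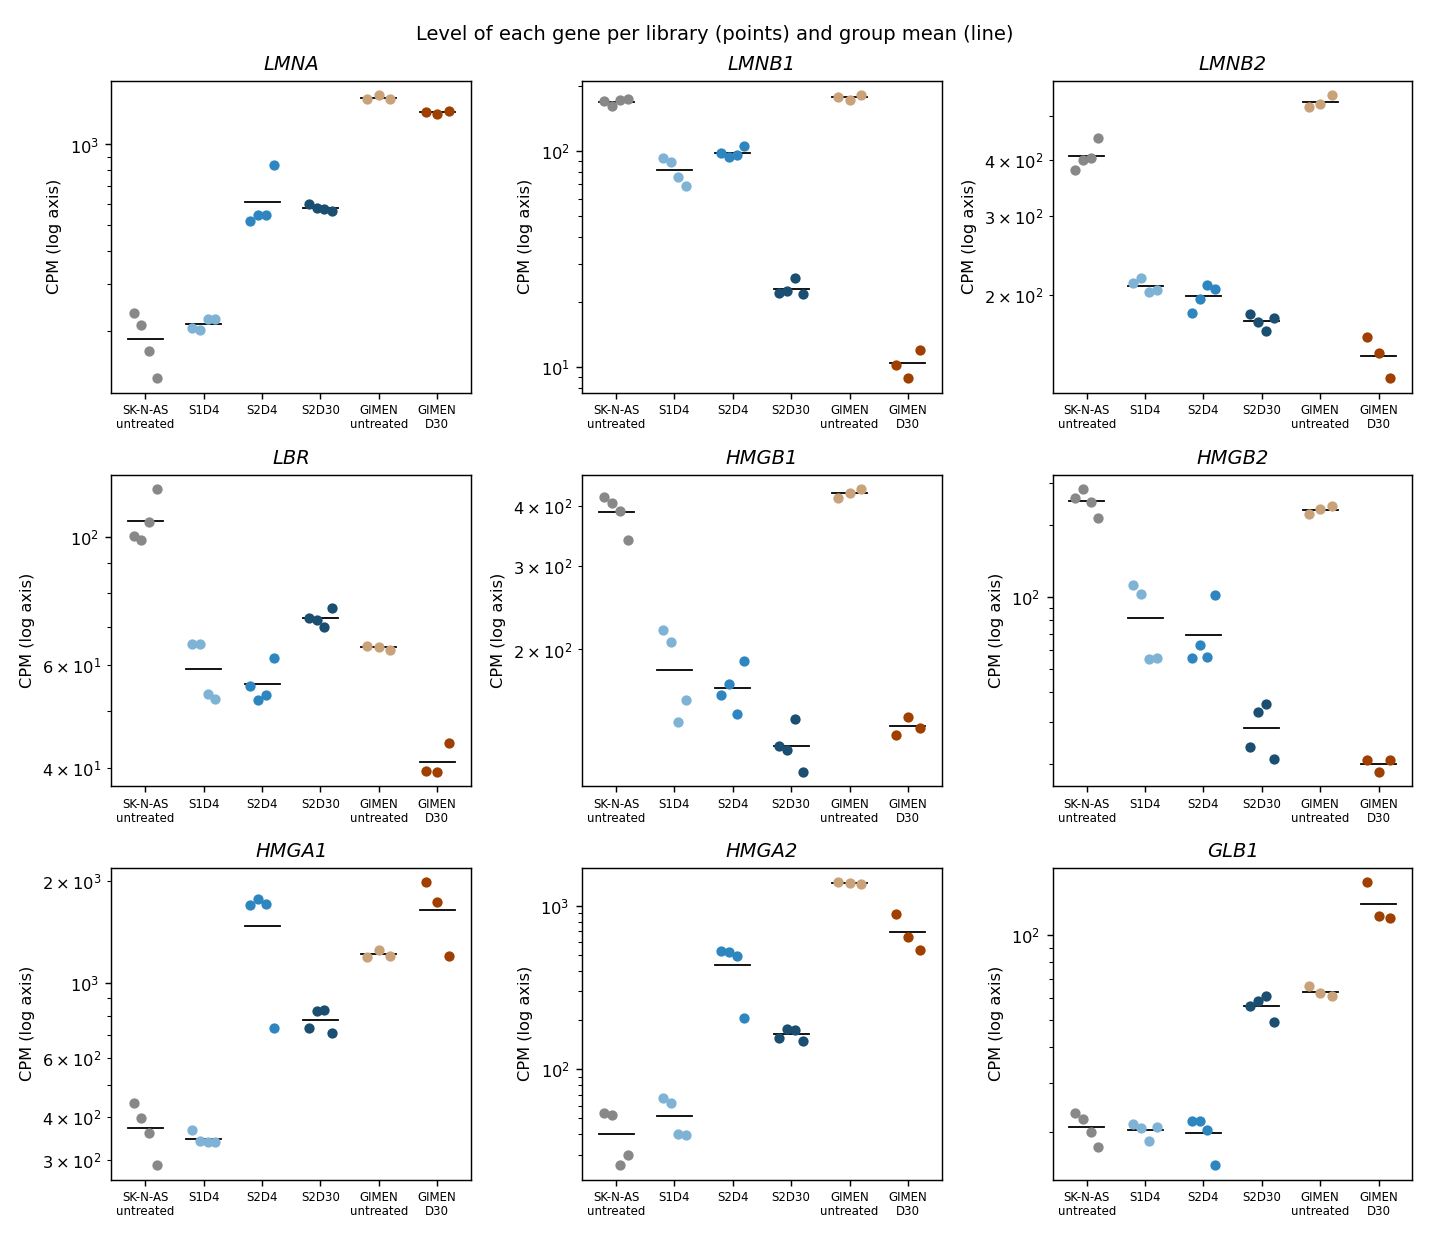
Each panel plots one gene, with the level in CPM on a logarithmic axis against the 6 groups; a point is a library and the line is the group mean. LMNB1 and HMGB2 were lowest in S2D30 and in treated GIMEN, HMGA1 and HMGA2 were highest among SK-N-AS groups in S2D4, and GLB1 stood apart from the other SK-N-AS groups only in S2D30.

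At 30 days LMNB1 was the lamina gene with the largest fall in both lines. On the log2 scale, most of its fall in SK-N-AS came between day 4 and day 30 of stage 2. In CPM the drop in stage 1 was the larger, with means of 168.7 and 81.47 CPM in untreated cells and S1D4. The means were 97.92 CPM in S2D4 and 22.98 CPM in S2D30. Its level in untreated SK-N-AS was 168.8, 160.9, 172.4 and 172.7 CPM in the 4 libraries. It was 92.41, 88.86, 75.87 and 68.75 CPM in S1D4 and 97.43, 93.86, 95.56 and 104.8 CPM in S2D4. In S2D30 it was 22.01, 22.51, 25.63 and 21.75 CPM. Untreated cells were thus above every treated library, and the S2D30 libraries were below all others of the line. Against untreated cells, LMNB1 fell by 1.08 on the log2 scale in S1D4 (SE 0.0902, adjusted p = 2.56e-07). Its log2 change was -0.82 in S2D4 (SE 0.0897, adjusted p = 6.58e-07) and -2.91 in S2D30 (SE 0.0967, adjusted p = 3.04e-13), where it was 7.53-fold lower. From S2D4 to S2D30 it fell by 2.09 (SE 0.0942, adjusted p = 8.39e-11). A small rise from S1D4 to S2D4 (log2 0.26, adjusted p = 0.0229) did not hold without S1D4 replicate 4 (adjusted p = 0.0906) or replicate 3 (adjusted p = 0.0711), with upper-quartile scaling (0.14), in a model of the 2 groups alone (0.0541) or with a term for replicates 3 and 4 (0.085).

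GIMEN showed no detectable difference from SK-N-AS in LMNB1 before treatment and a larger fall after it. Its untreated libraries had 176.7, 171.5 and 180.5 CPM, and its D30 libraries 10.21, 8.818 and 12.01 CPM. No treated library came near an untreated one. The log2 change was -4.12 (SE 0.0945, adjusted p = 2.25e-11), a 17.4-fold fall. It was larger than that of SK-N-AS by 1.19 on the log2 scale (SE 0.132, adjusted p = 1.32e-06, interaction term over both lines), while the untreated lines did not differ detectably (log2 -0.08 for SK-N-AS minus GIMEN, adjusted p = 0.413). The lines differed in dose, medium and stage 1 as well as in identity, which cannot be told apart.

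LMNB2, the second B-type lamin, was already near its lowest level after stage 1. It stood at 380.4, 399.6, 404.7 and 448.2 CPM in untreated SK-N-AS and at 212.5, 218.1, 203.7 and 204.9 CPM in S1D4. In S2D4 it was 182.2 to 211.1 CPM and in S2D30 166.1 to 181.5 CPM. All 12 treated libraries were below the 4 untreated ones, and S1D4 and S2D4 overlapped. The falls against untreated cells were a log2 change of -0.99 in S1D4 (SE 0.07, adjusted p = 4.3e-08), -1.07 in S2D4 (SE 0.0701, adjusted p = 1.61e-09) and -1.26 in S2D30 (SE 0.0704, adjusted p = 1.08e-10). The further step from S2D4 to S2D30 was small (log2 -0.19, adjusted p = 0.0335) and was not called with DESeq2 size factors (adjusted p = 0.0627), with upper-quartile factors (adjusted p = 0.135), without the filter on low counts (adjusted p = 0.087) or without any of S2D4 replicate 3 (adjusted p = 0.0996) and S2D30 replicates 2 (0.0671), 3 (0.0954) and 4 (0.0541). In GIMEN it was 525.4, 533.7 and 557.6 CPM in untreated cells and 161.1, 148.4 and 130.5 CPM after 30 days, a log2 change of -1.90 (SE 0.0783, adjusted p = 2.35e-09). That exceeded the fall in SK-N-AS by 0.63 (SE 0.114, adjusted p = 0.000214).

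LBR was lower in all treated groups, by less than LMNB1 and LMNB2 at 30 days in both lines, and in SK-N-AS it rose again between day 4 and day 30 of stage 2. Untreated SK-N-AS libraries had 100.3, 98.48, 106.1 and 120.9 CPM. The level was 52.53 to 65.38 CPM in S1D4, 52.25 to 61.81 CPM in S2D4 and 69.79 to 75.42 CPM in S2D30. The S2D30 libraries were above every S1D4 and S2D4 library and below every untreated one. LBR was lower than in untreated cells by a log2 change of -0.87 in S1D4 (SE 0.0907, adjusted p = 2.16e-06), -0.97 in S2D4 (SE 0.0909, adjusted p = 1.1e-07) and -0.59 in S2D30 (SE 0.0903, adjusted p = 1.85e-05), and it rose by 0.38 from S2D4 to S2D30 (SE 0.0906, adjusted p = 0.00231). In GIMEN it went from 64.82, 64.66 and 63.9 CPM to 39.51, 39.33 and 44.11 CPM, a log2 change of -0.68 (SE 0.0675, adjusted p = 3.29e-06). The change at 30 days did not differ detectably between the lines (difference 0.07, SE 0.111, adjusted p = 0.627).

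LMNA moved the other way in SK-N-AS. Its untreated libraries had 233.4, 210.4, 168.7 and 133.1 CPM, and S1D4 had 205.9, 202.3, 221.5 and 222.3 CPM. S2D4 libraries had 517.7, 544.5, 545.5 and 837.9 CPM, and S2D30 libraries 600.1, 580.7, 572.2 and 563.3 CPM. Untreated and S1D4 libraries overlapped, and both lay well below all 8 stage 2 libraries. No change was called in S1D4 (log2 0.16, SE 0.163, adjusted p = 0.456), whereas LMNA rose by 1.67 on the log2 scale in S2D4 (SE 0.167, adjusted p = 2.2e-07) and by 1.60 in S2D30 (SE 0.166, adjusted p = 2.24e-07, 3.02-fold). Without replicate 4 of S2D4, whose value is the high one, the rise in S2D4 was 1.49 (adjusted p = 5.93e-08). S2D30 and S2D4 did not differ detectably (log2 -0.08, adjusted p = 0.712), and without that library the sign turned (0.11, adjusted p = 0.535).

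In GIMEN, LMNA was high before treatment and slightly lower after it. Untreated libraries had 1478, 1529 and 1486 CPM and D30 libraries 1327, 1302 and 1331 CPM, without overlap. The log2 change was -0.21 (SE 0.062, adjusted p = 0.0102), and it was not called without untreated replicate 2 (adjusted p = 0.0543). The change in SK-N-AS exceeded that in GIMEN by 1.79 (SE 0.206, adjusted p = 2.02e-06). Untreated SK-N-AS cells had 8.10-fold less LMNA than untreated GIMEN (log2 -3.02, SE 0.149, adjusted p = 9.78e-12), and after 30 days the SK-N-AS libraries were still below every GIMEN library.

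The ratio of LMNA to LMNB1 was taken within each library, where library scaling cancels. In SK-N-AS its log2 mean was 0.11 ± 0.39 in untreated cells, 1.39 ± 0.27 in S1D4, 2.61 ± 0.26 in S2D4 and 4.65 ± 0.12 in S2D30 (SD, n = 4). The 4 groups did not overlap at any step, since untreated libraries reached at most 0.47, S1D4 ran from 1.15 to 1.69, S2D4 from 2.41 to 2.9975 and S2D30 from 4.48 to 4.76. In GIMEN the ratio went from 3.09 ± 0.06 to 6.99 ± 0.20 (SD, n = 3). The ratio in untreated GIMEN thus lay above all S2D4 libraries and below all S2D30 libraries. Per kilobase of the principal GENCODE 29 transcript, LMNA and LMNB1 were at 58.4 and 58.6 CPM per kb in untreated SK-N-AS, and at 181.5 and 7.99 CPM per kb in S2D30. In GIMEN these levels were 469.6 and 61.2 CPM per kb before treatment and 413.8 and 3.60 CPM per kb after it.

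**Figure D2:**
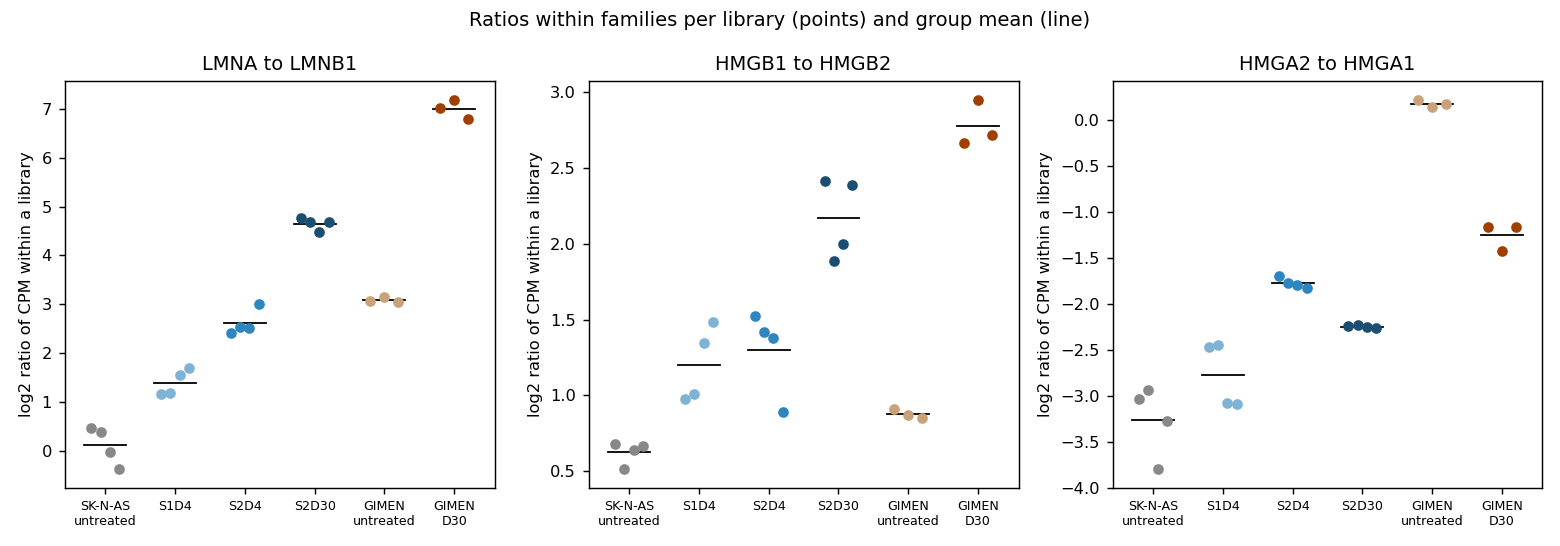
Log2 ratio of CPM within a library on the vertical axis against the 6 groups, for LMNA to LMNB1, HMGB1 to HMGB2 and HMGA2 to HMGA1; points are libraries and lines are group means. The LMNA to LMNB1 ratio reached 4.65 in S2D30 and 6.99 in treated GIMEN, while the HMGA2 to HMGA1 ratio was higher in S2D30 than in untreated SK-N-AS and lower in treated than in untreated GIMEN.

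HMGB2 fell in every comparison with untreated cells, by more than HMGB1 in each. In untreated SK-N-AS it was 261, 284.2, 250.9 and 213.3 CPM, and in S1D4 111.9, 103.3, 55.33 and 55.76 CPM. In S2D4 it was 55.72, 63.15, 56.37 and 102.1 CPM, and in S2D30 23.55, 33.15, 35.87 and 21.06 CPM. Replicates 1 and 2 of S1D4 and replicate 4 of S2D4 were the higher ones within their groups, yet every treated library was below every untreated one, and S2D30 was below all of S1D4 and S2D4. The log2 changes against untreated cells were -1.66 in S1D4 (SE 0.254, adjusted p = 8.28e-05), -1.90 in S2D4 (SE 0.256, adjusted p = 6.87e-06) and -3.19 in S2D30 (SE 0.271, adjusted p = 1.82e-08, 9.13-fold lower). Without replicate 4 of S2D4 the second value was -2.15 (adjusted p = 9.5e-07). From S2D4 to S2D30 the change was -1.29 (SE 0.256, adjusted p = 0.000489), and -1.05 without that library (adjusted p = 0.00128). GIMEN went from 221.9, 233.8 and 240.7 CPM to 20.84, 18.59 and 20.8 CPM, a log2 change of -3.56 (SE 0.0734, adjusted p = 1.04e-11, 11.8-fold). Neither the untreated lines (log2 0.11, adjusted p = 0.521) nor their 30-day changes (difference 0.35, SE 0.213, adjusted p = 0.19) differed detectably.

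HMGB1 fell in the same comparisons but by less. Its untreated SK-N-AS libraries had 417.4, 405.8, 391.3 and 338.9 CPM, and those of S1D4 219.9, 207.6, 140.9 and 156.4 CPM. S2D4 libraries had 146.7 to 189.2 CPM and S2D30 libraries 110.6 to 143.2 CPM. Every treated library was below every untreated one, and S1D4 and S2D4 overlapped. HMGB1 was lower by a log2 change of -1.13 in S1D4 (SE 0.135, adjusted p = 8.08e-06), -1.26 in S2D4 (SE 0.136, adjusted p = 5.41e-07) and -1.67 in S2D30 (SE 0.137, adjusted p = 1.24e-08, 3.18-fold lower). The step from S2D4 to S2D30 was -0.41 (SE 0.134, adjusted p = 0.0182), and it was not called without S2D30 replicate 4 (adjusted p = 0.0612). In GIMEN it went from 416.8, 427.2 and 435.3 CPM to 132.3, 144.1 and 137.1 CPM. That log2 change was -1.66 (SE 0.0616, adjusted p = 9.96e-10), and the change at 30 days differed between the lines by -0.03 (SE 0.137, adjusted p = 0.905).

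HMGB1 has many processed pseudogene copies, and 42 rows of the table carry pseudogene symbols of this gene. Their summed counts were at most 1.43% of the counts of these rows and HMGB1 together in any library. In the GENCODE 29 transcripts, 7.55% of the 75-base words of HMGB1 also occur in transcripts of other genes. How the authors treated reads that match several places is not given in the sources used here, so part of the HMGB1 count is uncertain. The log2 ratio of HMGB1 to HMGB2 went from 0.62 ± 0.08 in untreated SK-N-AS to 2.17 ± 0.27 in S2D30 (SD, n = 4) and from 0.88 ± 0.03 to 2.78 ± 0.15 in GIMEN (SD, n = 3), without overlap of the 2 groups of either line.

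HMGA1 and HMGA2 rose in stage 2 of SK-N-AS, with their highest levels at day 4. HMGA2 was 53.77, 52.17, 25.81 and 29.81 CPM in untreated cells and 66.34, 62.17, 39.98 and 39.72 CPM in S1D4. It was 524.9, 518.3, 492.7 and 207.1 CPM in S2D4 and 155.3, 175.1, 173.8 and 148.5 CPM in S2D30. Untreated and S1D4 libraries overlapped, and in both groups replicates 3 and 4 were the lower ones. All stage 2 libraries were above them, and replicate 4 of S2D4 lay nearer to S2D30 than to the rest of its group. No change was called in S1D4 (log2 0.34, SE 0.285, adjusted p = 0.376). The rise in S2D4 was 3.39 on the log2 scale (SE 0.308, adjusted p = 7.54e-08, 10.5-fold), or 3.62 without replicate 4 (adjusted p = 1.14e-09). In S2D30 HMGA2 was 3.93-fold above untreated cells (log2 1.97, SE 0.292, adjusted p = 1.33e-05), after a log2 change of -1.42 from S2D4 (SE 0.285, adjusted p = 0.000547). Without replicate 4 of S2D4 that change was -1.65 (adjusted p = 1.09e-05).

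HMGA1 followed a similar course. It was 442.5, 399.7, 360.4 and 288.5 CPM in untreated cells and 367.7, 339.6, 338.3 and 338.2 CPM in S1D4. S2D4 libraries had 1703, 1764, 1705 and 732.9 CPM, and S2D30 libraries 734.1, 822.5, 828.7 and 711.3 CPM. Replicate 4 of S2D4 lay within the range of S2D30, and all stage 2 libraries were above untreated ones. HMGA1 rose by 1.95 on the log2 scale in S2D4 (SE 0.213, adjusted p = 6.51e-07), or by 2.17 without replicate 4 (adjusted p = 8.84e-11), and by 1.02 in S2D30 (SE 0.208, adjusted p = 0.000351). It fell by a log2 change of -0.93 from S2D4 to S2D30 (SE 0.207, adjusted p = 0.00126), or -1.16 without that library (adjusted p = 3.11e-07). In S1D4 no change was called (log2 -0.14, SE 0.206, adjusted p = 0.638).

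In GIMEN the HMGA genes parted. HMGA2 was 1393, 1383 and 1358 CPM in untreated cells and 887.2, 647.3 and 538.3 CPM after 30 days, a log2 change of -1.02 without overlap (SE 0.14, adjusted p = 4.59e-05, 2.03-fold). HMGA1 was 1189, 1248 and 1203 CPM before and 1983, 1732 and 1201 CPM after treatment, and the groups overlapped through replicate 3 of D30. Its rise of 0.41 (SE 0.14, adjusted p = 0.0218) was not called by DESeq2 (adjusted p = 0.0594), nor in 5 of the 6 fits that left out 1 library, with adjusted p of 0.0766, 0.0532 and 0.0668 without untreated replicates 1, 2 and 3, and of 0.0617 and 0.0736 without D30 replicates 1 and 2. Without D30 replicate 3 the rise was 0.58 (adjusted p = 7.36e-06). The 30-day change of HMGA2 differed between the lines by 2.98 on the log2 scale (SE 0.311, adjusted p = 6.85e-07), with SK-N-AS rising and GIMEN falling. For HMGA1 the difference was 0.59 (SE 0.222, adjusted p = 0.0358), and it was not called in the model of all 22 libraries (adjusted p = 0.0997) or without any 1 of 7 libraries (untreated SK-N-AS replicate 3, S2D30 replicates 2 and 3, untreated GIMEN replicates 1, 2 and 3 and D30 replicate 3), with adjusted p of up to 0.0934.

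Before treatment, HMGA2 was 34.3-fold lower in SK-N-AS than in GIMEN (log2 -5.10, SE 0.241, adjusted p = 5.41e-12) and HMGA1 3.28-fold lower (log2 -1.72, SE 0.157, adjusted p = 3.21e-08). Per kilobase of principal transcript, HMGA2 and HMGA1 were at 9.03 and 172.7 CPM per kb in untreated SK-N-AS, and at 308.1 and 561.8 CPM per kb in untreated GIMEN. The log2 ratio of HMGA2 to HMGA1 in SK-N-AS was -3.26 ± 0.39 in untreated cells, -1.77 ± 0.05 in S2D4 and -2.25 ± 0.01 in S2D30 (SD, n = 4). Replicate 4 of S2D4, low in both genes, had a ratio of -1.82, close to the other 3 libraries of its group. In GIMEN the ratio went down from 0.18 ± 0.04 to -1.25 ± 0.15 (SD, n = 3).

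GLB1, the lysosomal β-galactosidase, changed only late in SK-N-AS among the times measured. Its level was 23.41, 22.37, 20.13 and 17.7 CPM in untreated cells, 18.64 to 21.45 CPM in S1D4 and 15.29 to 21.97 CPM in S2D4. The 3 groups overlapped, and neither S1D4 (log2 -0.06, SE 0.124, adjusted p = 0.724) nor S2D4 (log2 -0.11, SE 0.124, adjusted p = 0.462) passed the test. In S2D30 it was 55.95, 58.33, 60.87 and 49.11 CPM, above every other library of the line. The rise was 1.39 on the log2 scale against untreated cells (SE 0.125, adjusted p = 3.67e-08, 2.61-fold) and 1.49 against S2D4 (SE 0.125, adjusted p = 6.71e-08). GIMEN went from 65.9, 62.3 and 60.62 CPM to 153.8, 116.5 and 114.4 CPM, a rise of 1.00 (SE 0.102, adjusted p = 4.11e-06). The change at 30 days differed between the lines by 0.37 (SE 0.169), which did not pass the test (adjusted p = 0.0817) but passed it without GIMEN D30 replicate 1 (0.53, adjusted p = 0.0115) or without untreated SK-N-AS replicate 1 (0.44, adjusted p = 0.0341). Of the exon bases of GLB1 in GENCODE 29, 8.11% overlap exons on the opposite strand. Whether the counting used strand is not given in the sources used here, so reads of the overlapping gene cannot be told apart there.

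**Figure D3:**
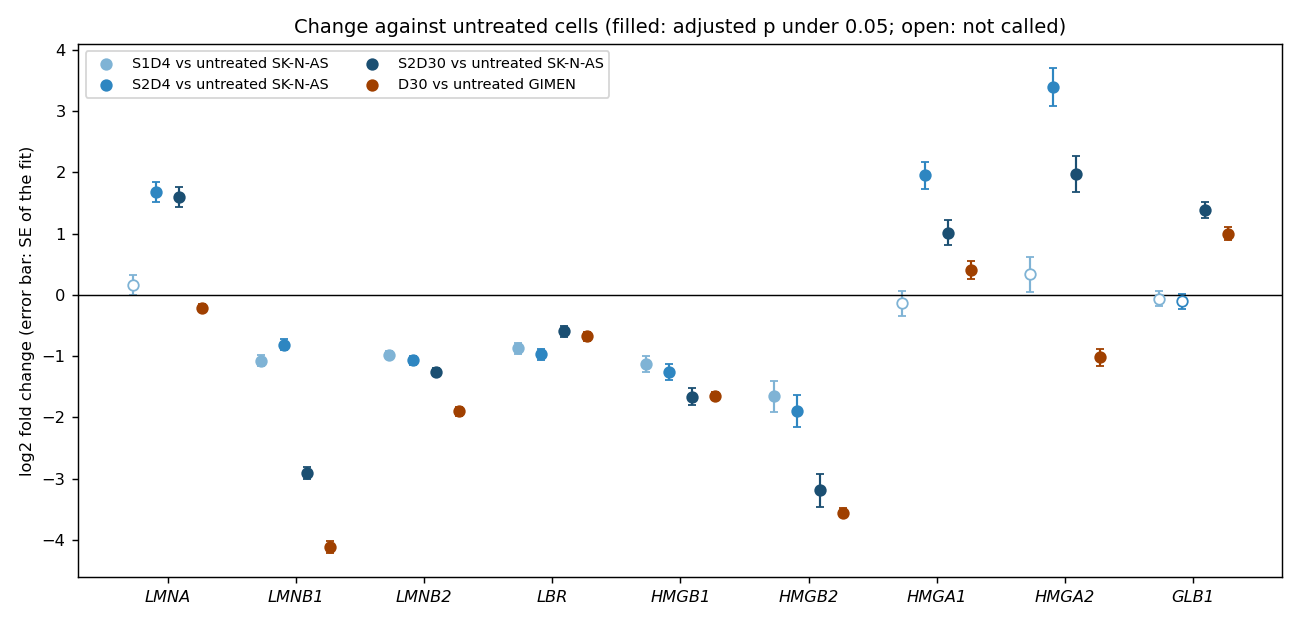
Log2 fold change against untreated cells of the same line on the vertical axis for each of the 9 genes, in S1D4, S2D4, S2D30 and treated GIMEN; error bars are the SE of the fit, filled points passed an adjusted p of 0.05 and open points did not. LMNB1, LMNB2, LBR, HMGB1 and HMGB2 lie below 0 in all 4 comparisons, LMNA and HMGA2 lie above 0 in stage 2 and below it in GIMEN, and GLB1 lies above 0 only at 30 days.

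Counted together, 5 of the 9 genes were lower and 0 higher in S1D4 against untreated SK-N-AS, where 22.4% of the 15810 genes tested were lower and 17.6% higher. In S2D4, 5 were lower and 3 higher (32.2% and 30.9% of all genes), and in S2D30 5 were lower and 4 higher (36.5% and 33.8%). The 5 lower genes were LMNB1, LMNB2, LBR, HMGB1 and HMGB2 in each of these comparisons, which share their untreated libraries. From S1D4 to S2D4, 4 were higher and 0 lower (28.3% and 26.8%), and from S2D4 to S2D30 2 were higher and 6 lower (24.4% and 26.9%). In GIMEN, 7 of 9 were lower and 2 higher, against 36% and 35.5% of 13517 genes. The 30-day change was higher in SK-N-AS than in GIMEN for 5 of 9 and lower for 0, against 24.5% and 25.2% of 16246 genes. Untreated SK-N-AS had 1 of the 9 higher than untreated GIMEN, which was LBR, and 5 lower, against 38.6% and 35.3%. The median log2 change of the 9 genes was -0.59 in S2D30 and -1.02 in GIMEN, where that of all genes tested was -0.03 and 0.02. Since these shares of all genes are large, the counts alone do not set the 9 genes apart.

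Tested as a list were 24 partners of the lamina, among them LEM-domain and LINC-complex proteins and the enzymes that process prelamin A. In S2D30, 10 were higher and 9 lower, against 33.8% and 36.5% of all genes tested. In GIMEN, 10 were higher and 11 lower, against 35.5% and 36%. The same shares of all genes apply to the 30-day counts of the lists that follow. These counts alone do not set the lamina partners apart. The largest rise in S2D30 was that of SUN2, which links the lamina to the cytoskeleton, from 65.81 to 72.6 CPM across untreated libraries to 159.8 to 196.4 CPM (log2 1.33, SE 0.216, adjusted p = 3.49e-05). The largest fall was that of SYNE2, which encodes the LINC protein nesprin-2, from 25.62 to 69.03 CPM down to 4.076 to 4.517 CPM (log2 -3.53, SE 0.366, adjusted p = 2.13e-07). In GIMEN, TOR1AIP1, the lamina-associated protein LAP1, rose by 0.98 (SE 0.0571, adjusted p = 3.95e-08), and VRK1, a kinase that phosphorylates BANF1, fell by 2.68 (SE 0.0974, adjusted p = 8.37e-10). The median of the list was 0.07 in S2D30 and 0.03 in GIMEN.

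Among 11 tested genes of other HMG-domain or nucleosome-binding HMG proteins, 8 were lower in each line at 30 days, and 2 were higher in S2D30 and 1 in GIMEN. The median was -0.86 in S2D30 and -0.42 in GIMEN. HMGB3, the third HMGB family member tested, went from 81.69 to 90.25 CPM in untreated SK-N-AS to 12.25 to 17.12 CPM in S2D30, a log2 change of -2.61 (SE 0.156, adjusted p = 2.4e-10), and fell by 2.58 in GIMEN (SE 0.0927, adjusted p = 7.73e-10). HMGXB3 rose in both, by 0.66 in S2D30 (adjusted p = 7.88e-05) and by 0.33 in GIMEN (adjusted p = 0.000943). The other gene that rose in S2D30, HMGXB4 (log2 0.40, adjusted p = 0.000167), was named after its values were seen, and it fell in GIMEN (log2 -0.42, adjusted p = 0.003).

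Genes tied to HMGA2 through let-7 and RNA binding were examined as a list of 7, of which 6 had a row and 4 passed the filter in SK-N-AS and 5 in GIMEN. IGF2BP2, whose transcription HMGA2 is known to promote, went from 40.31 to 60.86 CPM in untreated SK-N-AS to 111.8 to 117.2 CPM in S2D30 (log2 1.13, SE 0.137, adjusted p = 1.38e-06). In GIMEN, where HMGA2 fell, IGF2BP2 rose by 0.24 (SE 0.0903, adjusted p = 0.0299). That change was small and the libraries overlapped, at 115.8 to 122.4 CPM before and 121.8 to 163.8 CPM after treatment. All other tested genes of the list were lower at 30 days, and those outside the naming rule are given because they are few. IGF2BP3 fell by a log2 change of -0.78 in S2D30 (adjusted p = 0.000447) and -0.79 in GIMEN (adjusted p = 5.97e-05). IGF2BP1 had log2 changes of -2.41 in S2D30 (adjusted p = 1.79e-06) and -1.49 in GIMEN (adjusted p = 4.41e-09), and ARID3B of -0.51 (adjusted p = 0.0337) and -0.93 (adjusted p = 0.000582). LIN28B, an inhibitor of let-7 maturation, was at 4.068 to 5.106 CPM in untreated GIMEN and 1.332 to 1.878 CPM after treatment (log2 -1.61, adjusted p = 6.54e-05), and had at most 8 counts in any SK-N-AS library.

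Most other lysosomal hydrolases were higher at 30 days, as GLB1 was. In S2D30, 18 of 24 were higher and 0 lower, with a median of 0.93 on the log2 scale; GLB1 itself is not in the list. In GIMEN, 16 of 22 were higher and 1 was lower, with a median of 0.70. In S1D4, where GLB1 was not called, 10 of 24 were already higher and 1 lower, against 17.6% and 22.4% of all genes. In S2D4, 15 were higher and 3 lower, against 30.9% and 32.2%. In GIMEN, MANBA, a β-mannosidase, rose by 1.97 (SE 0.1, adjusted p = 1.29e-08), from 24.08 to 28.98 CPM up to 93 to 119.1 CPM.

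Of 20 further senescence markers, cell cycle inhibitors and secreted factors, 18 were higher and 2 lower in S2D30, with a median of 5.08, and 12 were higher and 3 lower of 15 tested in GIMEN, with a median of 1.49. The genes that were lower in S2D30 were CCL2 and IGFBP7, and those in GIMEN included IL6 and IGFBP3; all 4 were named after their values were seen. CDKN1A, the cell cycle inhibitor p21, was at 9.795 to 13.81 CPM in untreated SK-N-AS, 117.7 to 147.1 CPM in S1D4, 504.5 to 633.8 CPM in S2D4 and 321.3 to 392.1 CPM in S2D30. It rose by 4.85 in S2D30 (SE 0.14, adjusted p = 7.14e-14) and by 0.90 in GIMEN (SE 0.0996, adjusted p = 8.17e-06), from 235.6 to 242.8 CPM up to 378.9 to 530.7 CPM. MMP1, a secreted collagenase, was at 0.4272 to 1.582 CPM in untreated SK-N-AS and 8701 to 11010 CPM in S2D30. In GIMEN it was at 2.939 to 4.468 CPM before and 229.6 to 576.2 CPM after treatment (log2 6.52, SE 0.376, adjusted p = 3.58e-08).

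All 16 proliferation genes were lower in S1D4, S2D4, S2D30 and treated GIMEN, with medians of -1.77, -2.81, -5.47 and -5.76. MKI67, the proliferation antigen Ki-67, was at 132.9 to 266.7 CPM in untreated SK-N-AS, 27.04 to 80.81 CPM in S1D4, 16.76 to 24.26 CPM in S2D4 and 0 to 0.4385 CPM in S2D30. In GIMEN it went from 229.9 to 259.1 CPM to 1.99 to 2.818 CPM. BIRC5, which encodes survivin, fell by 7.08 in GIMEN (SE 0.114, adjusted p = 2.74e-12). LMNB1, LMNB2, LBR, HMGB1 and HMGB2 were also lower in these 4 comparisons, and the part of proliferation in their changes was not tested. From S1D4 to S2D4, 11 of the 16 proliferation genes were lower and 1 higher (median -1.11). The 1 higher was MCM6, while MCM2, PCNA, RRM2 and TYMS were not called (genes named after their values were seen). Of the 5 lamina and HMGB genes, none was called lower at this step in the main model, where LMNB1 was called higher (log2 0.26, adjusted p = 0.0229). With upper-quartile factors LMNB2 was called lower (log2 -0.18, adjusted p = 0.0345) and LMNB1 was not called. From S2D4 to S2D30 all 16 were lower. LMNB1, LMNB2, HMGB1 and HMGB2 were lower at that step too (log2 -2.09, -0.19, -0.41 and -1.29), whereas LBR was higher.

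**Figure D4:**
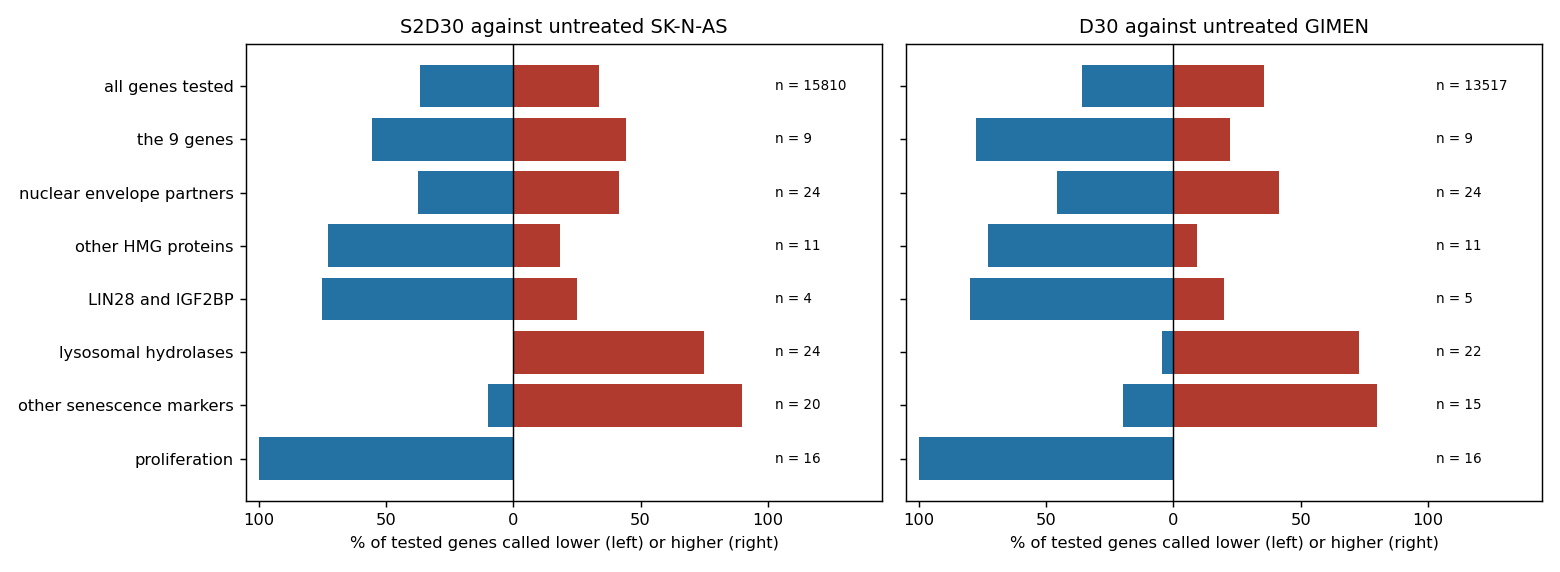
Share of tested genes called lower (left of 0) and higher (right of 0), in percent, for all genes, the 9 genes and 6 wider lists, in S2D30 against untreated SK-N-AS and in treated against untreated GIMEN; n is the number of genes tested. All 16 proliferation genes were lower in both lines, while 18 of 24 and 16 of 22 lysosomal hydrolases were higher.

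The genes whose pattern was most like that of a given gene were found by Pearson correlation of log2 CPM over the 16 SK-N-AS libraries, among 10112 genes, and the same pairs were then read in the 6 GIMEN libraries. These libraries form groups, so the values describe differences between groups, and no p is given. LMNB1 was most like TYMS (r = 0.9923, and 0.9992 in GIMEN), UHRF1 (0.9895 and 0.9959) and CTPS1 (0.9885 and 0.9926). HMGB2 was most like FEN1 (0.9883 and 0.9987), RP11-673C5.1 (0.9842 and 0.9763) and RFC5 (0.9819 and 0.999). TYMS encodes thymidylate synthase, UHRF1 a factor of DNA methylation maintenance, FEN1 a flap endonuclease and RFC5 a clamp loader subunit. With only 2 groups in GIMEN, genes that differ strongly between them correlate closely there, as LMNB1 did with LBR (0.993, against 0.308 in SK-N-AS). For LMNA the closest were ARPC1B (0.9877), TNFRSF12A (0.9873) and TCTN3 (0.9869), which in GIMEN stood at 0.8579, 0.9418 and -0.2765. For HMGA2 they were SPCS3 (0.9751), HMGA1 (0.9735) and STAMBPL1 (0.9729), and all 3 were negative in GIMEN, at -0.8098, -0.3757 and -0.9937. GLB1 was most like ZNF365 (0.9825, and 0.9081 in GIMEN), ASAH1, the lysosomal acid ceramidase (0.9777 and 0.976), and CARS2 (0.9751 and 0.08426). Among the 9 genes themselves, LMNB1 correlated with HMGB2 at 0.908 and with GLB1 at -0.891 over the SK-N-AS libraries, and at 0.999 and -0.962 over those of GIMEN.

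Ordered by mean level, LMNB1 and HMGB2 were lowest in treated GIMEN, then in S2D30, and highest in the 2 untreated groups, which overlapped each other for both genes. For HMGB1 the 2 lowest groups, S2D30 and treated GIMEN, overlapped, as did the 2 untreated groups. LMNA and HMGA2 had their 2 highest levels in the 2 GIMEN groups, which overlapped neither each other nor any SK-N-AS group. For HMGA2 the margin was narrow, at 538.3 CPM in treated GIMEN replicate 3 against 524.9 CPM in S2D4 replicate 1. With scaling within each line these libraries had 482 and 543.3 CPM, so the groups overlapped. GLB1 in S2D30 overlapped untreated GIMEN, and treated GIMEN was above both. LBR was highest in untreated SK-N-AS, without overlap with the next group, S2D30.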

How the data were processed

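Per the labels' protocols, total RNA was treated with DNase and sequenced by a company on an Illumina HiSeq X. The authors deposited 1 table of raw read counts, with a row per gene. The aligner, counter, genome build, annotation and use of strand are not given in the sources used here. Totals per library, 16456484 to 37506800, set the precision; reads carried no molecular identifiers, so floors cover counting error only. No identical libraries were found (0 pairs).

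Counts were tested in R 4.3.3 with edgeR 4.0.16 (filterByExpr with a minimum count of 10 and a total of 15, TMM scaling, quasi-likelihood F-test, Benjamini-Hochberg over all genes tested, threshold 0.05). One model held the 16 SK-N-AS libraries (15810 genes), another the 6 GIMEN libraries (13517), and 1 more the 14 untreated and 30-day libraries of both lines (16246). SEs are the log2 fold change divided by the square root of F. CPM values use 1 TMM scaling of all 22 libraries, and ratios and correlations a prior count of 2. The scripts were tested on simulated data. Transcript lengths and overlaps come from GENCODE 29, whose build may not be that of the authors. The members and lists were chosen with earlier results of these data known. Named from each wider list were at most the largest rise and fall per 30-day comparison (adjusted p under 0.05, mean of at least 10 CPM), plus CDKN1A and MKI67, with exceptions said; some genes that this rule names are not reported here. Groups and replicate numbers come from the labels, and no replicate block was used. Alternatives were other scalings, DESeq2 1.42.0, other filters, a block, other sets of libraries and leaving out each library. Schwann and endothelial marker lists were also read: their summed levels were at most 8.875 and 30.45 CPM, the latter in treated GIMEN.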

Additional observations from a re-analysis of the deposited data

Results flagged for a closer look

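In groups of 4 libraries, 36 in all over the 9 genes, a library was singled out where its gap to the nearest other library was a large part of the group's range (Dixon's test at 95%), which chance alone gives in about 1 of 20 groups. Replicate 4 of S2D4 was singled out for 4 genes: LMNA at 837.9 CPM (others 517.7 to 545.5), HMGB2 at 102.1 CPM (others 55.72 to 63.15), HMGA1 at 732.9 CPM (others 1703 to 1764) and HMGA2 at 207.1 CPM (others 492.7 to 524.9). Replicate 1 of S1D4 was singled out for HMGA1, at 367.7 CPM (others 338.2 to 339.6).

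The 30-day change differed between the lines, by the interaction test, for 5 genes. SK-N-AS minus GIMEN was 1.7869 on the log2 scale for LMNA, 1.1881 for LMNB1, 0.6312 for LMNB2, 0.592 for HMGA1 and 2.9776 for HMGA2. LMNA and HMGA2 rose in SK-N-AS and fell in GIMEN.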

How the results depend on the processing

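Of 540 values recomputed under other settings, 527 kept their direction and side of the threshold, 8 lost the call, 3 gained one and 2 turned sign; of 603 with 1 library left out, these numbers were 573, 20, 2 and 8. Requiring also a log2 change of 1 or more in size cut the genes called in S1D4 from 5 to 3, all lower, and left 3 lower in S2D4, 4 called from S2D4 to S2D30 (1 higher and 3 lower), 5 called and 0 higher in GIMEN, 3 called for the difference between the lines (all 3 higher) and 0 higher between the untreated lines. From S1D4 to S2D4, 1 gene was lower with upper-quartile factors and 1 with a term for replicates 3 and 4. In GIMEN 1 gene was higher by DESeq2, and 1 to 2 with 1 library left out. Between the untreated lines, upper-quartile factors moved the median of all genes by 0.15 and turned LMNB1 to 0.0735 and HMGB1 to 0.0039. With 1 library left out, GLB1 ranged from -0.1341 to 0.0245 in S1D4, from -0.1743 to 0.0027 in S2D4 and from -0.0959 to 0.0659 between them, LMNA from -0.154 to 0.107 between S2D4 and S2D30, and HMGB1 from -0.1043 to 0.0258 for the difference between the lines; none of these was called. Where no cause is shown by the setting itself, the cause was not tested.

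The labels do not say that replicate numbers pair the samples. Same-numbered libraries of untreated SK-N-AS and S1D4 deviated together for 3 of 4 numbers (correlations 0.309, 0.28, 0.0327 and 0.314), short of all 4, and those of GIMEN for none, so the numbers were not treated as a pairing. Of those 4 pairs, 3 libraries correlated best with their own number. With the replicate number as a block, the calls changed in 1 comparison, the difference between the lines, where 6 genes rather than 5 passed, GLB1 being added (0.3847, adjusted p = 0.0282). HMGA2 in S1D4, higher than in the same-numbered untreated library for 4 of 4 numbers, was not called with the block either (0.3546, adjusted p = 0.196). The block fits 1 effect per number over all SK-N-AS groups. Same-numbered libraries of the other SK-N-AS group pairs had correlations of -0.106 to 0.111. The block therefore cannot decide on a pairing of untreated and S1D4 libraries alone. Depth limits LIN28B in SK-N-AS; the 9 genes have far more counts.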
